A study of Mus musculus with 899 samples.

Results

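The strain difference of the early irradiation response was measured in the plasma of C57Bl/6 and C3H mice at day 2 (D2) and day 5 (D5) after whole thorax lung irradiation (WTLI). For each miRNA, the effect of irradiation in a strain was the level in irradiated mice minus the level in sham mice of the same day, and the strain difference was the effect in C57Bl/6 minus the effect in C3H. A positive value therefore means that the level relative to sham mice was further upward, or less far downward, in C57Bl/6 than in C3H. A rise or fall of a miRNA is likewise given relative to sham mice of the same day. All 192 libraries labelled D2 or D5 were used, out of 899 plasma libraries in the series, with 32 irradiated and 16 sham mice per strain and day. C57Bl/6 mice carried the title codes G1 and G3 and C3H mice the codes G2 and G4, and each code, sex and day held 8 irradiated and 4 sham mice.

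All mice were gnotobiotic adults of both sexes, and the C3H mice were of the substrain C3Hf/Sed/Kam. Irradiated mice received a single X-ray exposure of the thorax with the rest of the body shielded, and sham mice received none. The dose was set for each strain from its own lethality curve. The doses that the paper reports for the strains were nearly equal, but strain and dose cannot be told apart here. The mice bled at day 2 and at day 5 were different animals, 96 at each day, and each also gave a sample before irradiation (PT). The p-values rest on the spread between mice within a group, pooled over the groups of all time points. The 899 libraries came from 196 mice, and repeated libraries of a mouse were treated as independent. Since C57Bl/6 and C3H mice never shared a title code, strain and code cannot be told apart either.

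Circulating miRNA are short RNA that cells release into plasma in vesicles, bound to proteins or when they are damaged, and many are made mainly by 1 cell type. C3H mice are known for pneumonitis after thoracic irradiation, whereas C57Bl/6 mice are known to progress to lung fibrosis. Lymphocytes are killed within days of such an exposure, and miR-34a is a transcriptional target of p53, the factor that cells activate after DNA damage. In plasma, a change in the number of cells that release a miRNA and a change in the amount each cell releases cannot be told apart.

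The mature sequences of the miRNA whose strain difference passed the test are shown where a mouse RefSeq entry (GRCm38.p6) was matched, together with miR-192-5p, which has the same seed as miR-215-5p. They are written 5′ to 3′ with the seed, bases 2 to 8, in capitals, because the seed is the stretch that pairs with target mRNA and defines families.
miR-215-5p: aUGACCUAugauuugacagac
miR-192-5p: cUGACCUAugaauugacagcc
miR-215-3p: uCUGUCAUucuguaggccaau
let-7a-5p: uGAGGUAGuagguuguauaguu
miR-223-3p: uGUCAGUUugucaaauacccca
miR-24-3p: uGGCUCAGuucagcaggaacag
miR-140-3p: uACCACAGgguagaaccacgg
miR-423-5p: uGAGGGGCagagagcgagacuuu
miR-802-5p: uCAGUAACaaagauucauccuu
miR-3066-5p: uUGGUUGCuguagauuaaguag
The miRNA miR-375-3p, miR-486a-5p and miR-486b-5p also passed the test.

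The 192 libraries held between 206490 and 5838543 miRNA reads (median 1316729). The median was lower in the C57Bl/6 groups, between 855373.5 and 1300997, than in the C3H groups, between 1430358.5 and 1750030. Of 1915 miRNA listed, 483 were tested, and these held 99.9901% of all reads. Of the 192 libraries, 3 stood apart from the rest of their group. All 3 were sham C57Bl/6 females of code G3 at day 5, with 419427, 424138 and 613538 reads. Their mean absolute distance from the group's median over 164 abundant miRNA was 1.27, 1.16 and 1.14 on the log2 scale, against 0.971 for the next library and 0.482 for the median library. The called strain differences that use the sham C57Bl/6 mice of day 5, and the other named results that rest on them, are therefore also given without these libraries, a choice made after seeing the data.

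Few strain differences passed the test. With edgeR's quasi-likelihood test and an adjusted p under 0.05, 3 miRNA (0.621% of those tested) differed between strains in their response at day 2, 9 (1.86%) at day 5 and 4 (0.828%) over both days together. By comparison, 32 miRNA (6.63%) responded in C57Bl/6 and 24 (4.97%) in C3H at day 2, and 68 (14.1%) and 15 (3.11%) at day 5. The median strain difference over all 483 miRNA was 0.02 on the log2 scale at either day, a centre that the TMM scaling of the libraries sets. The same contrast in the samples taken before irradiation gave 0 calls (0%), with 22 miRNA at an unadjusted p under 0.05. Without the 3 libraries that stood apart, the calls at day 5 went from 9 to 1 (0.207% of 482 tested), and those in C57Bl/6 at day 5 from 68 to 36 (7.47%).

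**Figure D1:**
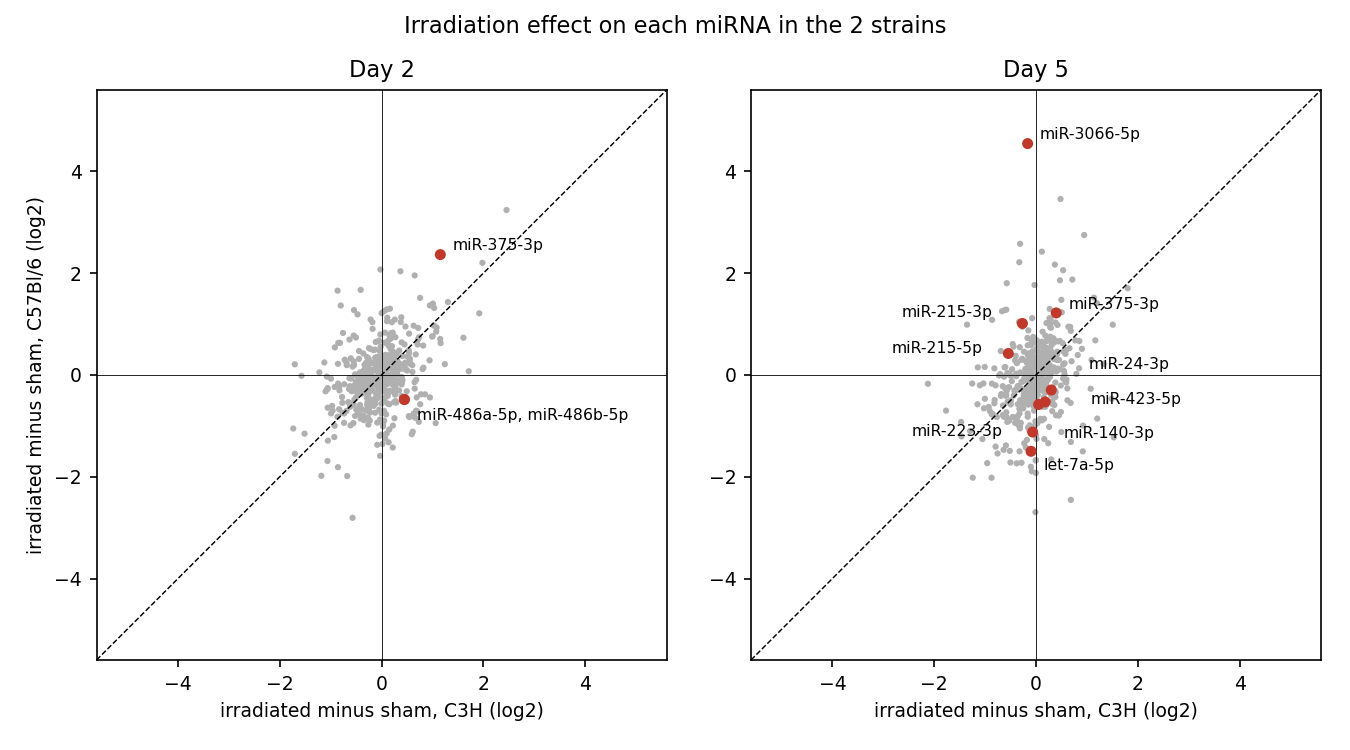
Irradiation effect on each tested miRNA in C3H (horizontal axis) and C57Bl/6 (vertical axis), as log2 differences between irradiated and sham mice at day 2 (left) and day 5 (right), with the dashed line marking equal effects. The miRNA whose strain difference passed the test are in red and named, 3 at day 2 and 9 at day 5, with miR-375-3p above the line at both days.

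The clearest strain difference was in miR-375-3p, a miRNA made by pancreatic islet cells, other endocrine cells and gut epithelium, whose gene lies between protein-coding genes at chr1:74900658-74900721 (GRCm38, minus strand). At day 2, sham C57Bl/6 mice had between 8.79 and 10.30 log2 CPM (median 9.49) and irradiated C57Bl/6 mice between 10.27 and 12.93 (median 11.72). Sham C3H mice had between 8.28 and 11.20 log2 CPM (median 10.09) and irradiated C3H mice between 9.55 and 12.83 (median 10.99). In C57Bl/6 the groups barely overlapped, with 30 of 32 irradiated mice above the highest sham mouse, whereas in C3H only 12 of 32 were. Irradiation raised miR-375-3p in both strains at day 2, by 2.37 ± 0.19 (SE) on the log2 scale in C57Bl/6 (edgeR adjusted p = 7.38e-30) and by 1.16 ± 0.18 in C3H (edgeR adjusted p = 1.86e-08). The strain difference was 1.21 ± 0.24, with a 95% interval of 0.74 to 1.68 (edgeR adjusted p = 0.000278). It passed in 23 of 28 alternatives, which gave 0.91 to 1.33. Within codes G1 and G2 it was 1.25 (edgeR adjusted p = 0.0624) and within G3 and G4 1.22 (edgeR adjusted p = 0.127). As a change from the mouse's own earlier sample, with the mouse as a fixed replicate block, it was 1.01 and did not pass (limma-voom adjusted p = 0.175).

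At day 5 the levels in irradiated mice of both strains had come close to each other. Irradiated C57Bl/6 mice had between 9.14 and 11.96 log2 CPM of miR-375-3p (median 10.43) and irradiated C3H mice between 9.47 and 11.95 (median 10.40). The sham groups differed more, with medians of 9.28 in C57Bl/6 (range 7.73 to 10.29) and 9.91 in C3H (range 8.74 to 11.33). Of the irradiated mice, 17 of 32 were above the highest sham mouse in C57Bl/6 and 3 of 32 in C3H. miR-375-3p rose by 1.22 ± 0.18 in C57Bl/6 (edgeR adjusted p = 2.34e-09) and differed by 0.40 ± 0.17 in C3H, which did not pass the test (edgeR adjusted p = 0.296). The strain difference at day 5 was 0.82 ± 0.24 (edgeR adjusted p = 0.0347) and 0.62 ± 0.25 without the 3 libraries that stood apart (edgeR adjusted p = 0.452), which had between 7.73 and 8.75 log2 CPM. With the mouse as a replicate block it was 0.78 (limma-voom adjusted p = 0.119).

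**Figure D2:**
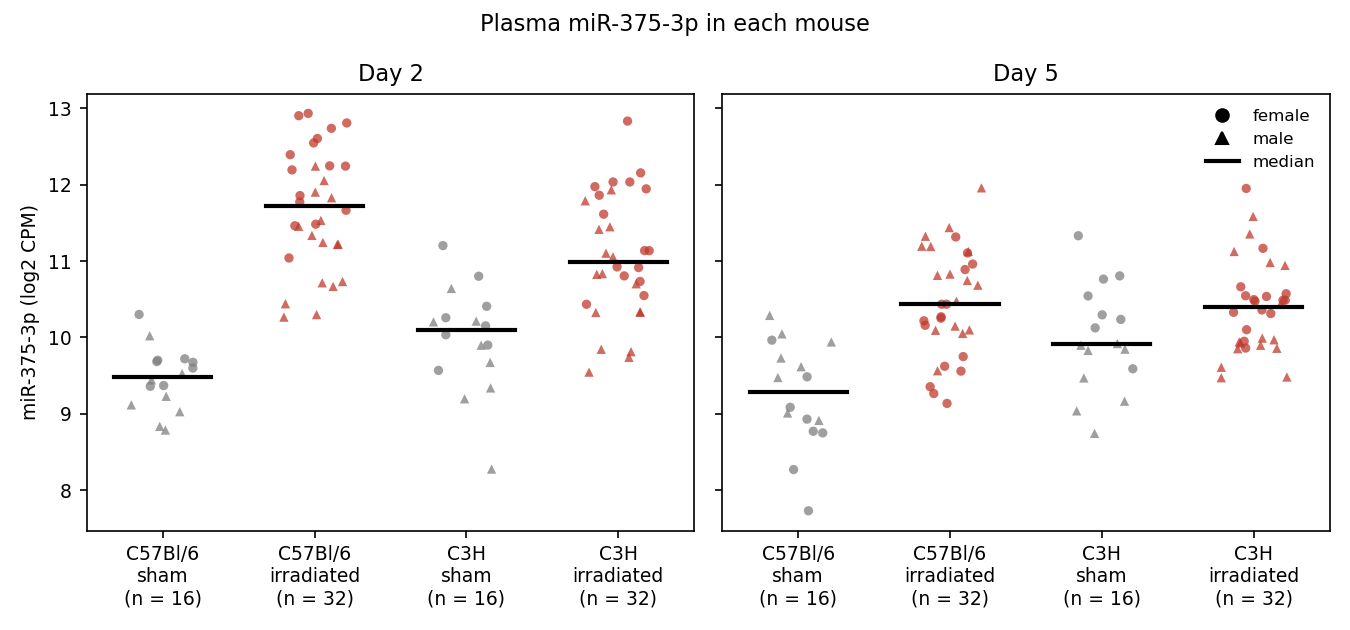
Level of miR-375-3p in log2 CPM (vertical axis) in each mouse of the 4 groups at day 2 (left) and day 5 (right), with circles for females, triangles for males and bars for medians. At day 2, irradiated C57Bl/6 mice (median 11.72) lie almost entirely above sham C57Bl/6 mice (median 9.49), with 30 of 32 above the highest, and 12 of 32 do so in C3H (medians 10.99 and 10.09).

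Over both days the strain difference of miR-375-3p was 1.02 ± 0.17 (95% interval 0.68 to 1.35, edgeR adjusted p = 1.53e-06) and 0.90 ± 0.17 without the 3 libraries (edgeR adjusted p = 0.000138). It passed in 27 of 28 alternative analyses, the exception being the one in males only, with 0.54 (edgeR adjusted p = 0.560). Within the title codes G1 and G2 it was 0.85 (edgeR adjusted p = 0.0340) and within G3 and G4 1.27 (edgeR adjusted p = 3.81e-05). Before irradiation the same contrast was -0.03 ± 0.17 (edgeR adjusted p = 0.989), so the groups did not start apart by a comparable amount. Set against each mouse's own earlier sample, miR-375-3p was higher in 32 of 32 irradiated C57Bl/6 mice at day 2, by a median of 1.65, and in 30 of 32 irradiated C3H mice, by a median of 1.12. The sham mice moved differently in the 2 strains, with a median change of -0.38 in C57Bl/6 (3 of 16 higher) and 0.37 in C3H (12 of 16 higher). At day 5 the median change was 0.55 in irradiated and -0.79 in sham C57Bl/6 mice, against 0.56 and 0.01 in C3H. Both the irradiated and the sham mice thus enter the strain difference, and at day 5 the change in irradiated mice was nearly the same in both strains. The strain difference was 1.29 ± 0.22 in females and 0.63 ± 0.22 in males, but the difference between the sexes, 0.67 ± 0.31, did not pass the test (edgeR adjusted p = 0.368).

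At day 2 the response of miR-486a-5p and miR-486b-5p, abundant miRNA of red blood cells, also differed between strains. The 2 miRNA are counted from nearly identical reads, their counts differing by 5.42% at most, so they are 1 observation and not 2. Their shared locus lies in an intron of Ank1, the erythroid ankyrin gene, at chr8:23142555-23142682 (GRCm38). Sham C57Bl/6 mice had between 13.45 and 16.10 log2 CPM of miR-486a-5p (median 14.89) and irradiated C57Bl/6 mice between 12.93 and 15.78 (median 14.31). Sham C3H mice had between 13.51 and 15.63 log2 CPM (median 14.50) and irradiated C3H mice between 14.29 and 15.95 (median 14.94). The groups overlapped in both strains, with irradiated mice lower than sham mice at the median in C57Bl/6 and higher in C3H. Relative to each mouse's earlier sample, the median change of miR-486a-5p was 0.03 in irradiated and -0.94 in sham C3H mice. In C57Bl/6 it was -0.46 in irradiated and 0.08 in sham mice. The higher level of irradiated C3H mice thus rested largely on lower levels in sham mice. Neither effect passed on its own, at -0.48 ± 0.18 in C57Bl/6 (edgeR adjusted p = 0.0709) and 0.45 ± 0.18 in C3H (edgeR adjusted p = 0.153), but their difference of -0.93 ± 0.25 did (edgeR adjusted p = 0.0460).

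This difference was close to the threshold and was not seen at day 5, where it was 0.02 ± 0.25. It missed the threshold without the 3 libraries that stood apart, although these are day 5 libraries (-0.96 ± 0.27, edgeR adjusted p = 0.0529), and passed in 10 of 28 alternatives. The other red blood cell miRNA did not pass, with strain differences at day 2 of -0.49 ± 0.35 for miR-451a, 0.14 ± 0.35 for miR-144-3p and 0.04 ± 0.38 for miR-144-5p. The summed share of the 5 red blood cell miRNA includes the miR-486 pair itself. At day 2 its median was 4.73% of reads in irradiated C57Bl/6 mice (range 2.83% to 8.72%) and 5.91% in sham (3.13% to 8.77%), against 8.29% in irradiated C3H mice (6.20% to 14.7%) and 7.35% in sham (4.02% to 11.0%). With miR-451a as a covariate the strain difference was -0.72 (edgeR adjusted p = 0.0827). The part of red blood cell content in it was not tested further.

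At day 5 the 5 negative strain differences were in let-7a-5p, miR-223-3p, miR-24-3p, miR-140-3p and miR-423-5p, and each shrank or vanished without the 3 libraries that stood apart. The let-7 miRNA are made by most differentiated cells, and let-7a-5p had the largest of these differences, -1.40 ± 0.34 (edgeR adjusted p = 0.00457). Sham C57Bl/6 mice had between 11.24 and 16.11 log2 CPM of let-7a-5p (median 11.95) and irradiated C57Bl/6 mice between 11.12 and 13.22 (median 12.04). Sham C3H mice had between 11.11 and 13.20 log2 CPM (median 12.38) and irradiated C3H mice between 10.78 and 13.73 (median 12.10). The medians of sham and irradiated C57Bl/6 mice were thus almost equal, and the difference came from the top of the sham group. The 3 libraries that stood apart had 14.94, 15.34 and 16.11 log2 CPM, above the other 13 sham mice (11.24 to 13.43). The highest of these 13 was the remaining sham female of G3, and the other 12 reached at most 13.33. Without the 3 libraries the strain difference of let-7a-5p was 0.06 ± 0.32 (edgeR adjusted p = 0.996) and the effect in C57Bl/6 went from -1.50 ± 0.23 to -0.05 ± 0.24. No other miRNA with the let-7 seed was called among 9 tested, the nearest being let-7e-5p at -0.88 (edgeR adjusted p = 0.0862) and miR-98-5p at -0.96 (edgeR adjusted p = 0.218).

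**Figure D3:**
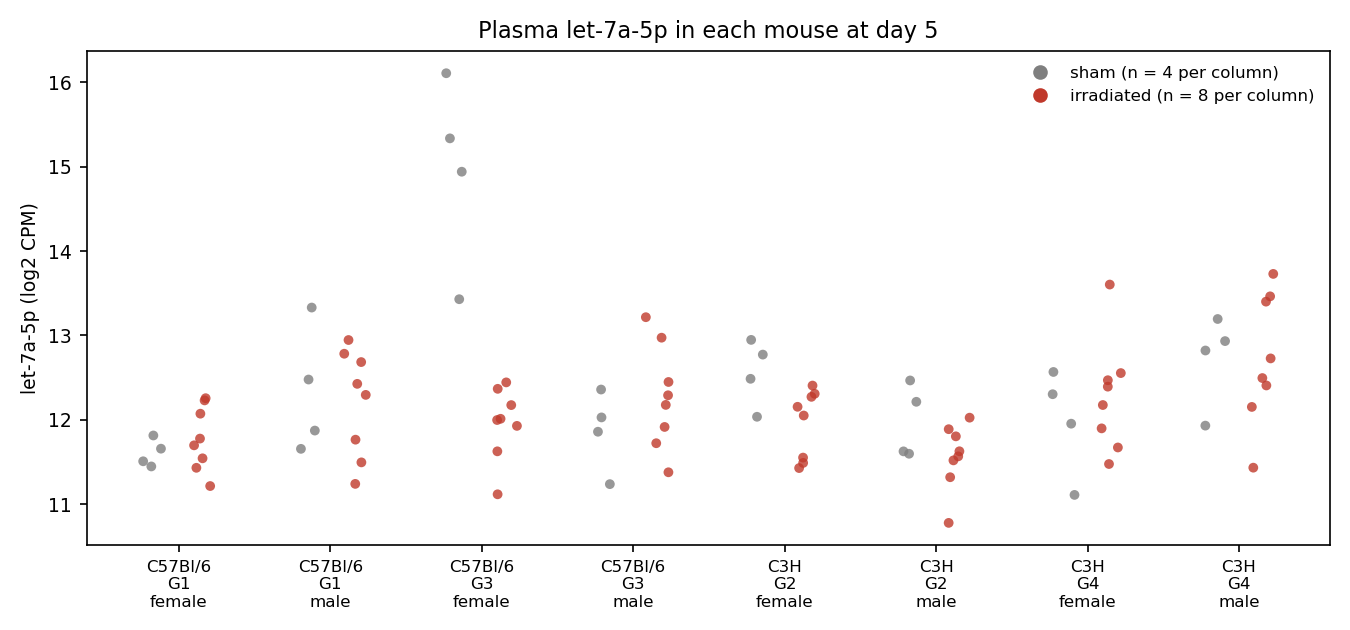
Level of let-7a-5p in log2 CPM (vertical axis) in each mouse at day 5, split by strain, title code and sex (horizontal axis), with sham mice in grey and irradiated mice in red. The sham C57Bl/6 females of code G3 hold the 3 highest values, 14.94 to 16.11, and no irradiated mouse exceeds 13.73.

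miR-223-3p, made chiefly by neutrophils and other myeloid cells, kept a difference within C57Bl/6. At day 5 it ranged from 11.13 to 13.91 log2 CPM in sham (median 11.82) and from 9.80 to 12.47 in irradiated C57Bl/6 mice (median 11.18), with 15 of 32 irradiated mice below the lowest sham mouse. In C3H it was lower and the groups overlapped, with medians of 9.83 in sham mice (9.45 to 10.94) and 9.87 in irradiated mice (9.10 to 10.86). The strain difference was -1.06 ± 0.25 (edgeR adjusted p = 0.00457), from -1.12 ± 0.17 in C57Bl/6 and -0.07 ± 0.18 in C3H. Without the 3 libraries it was -0.57 ± 0.26 and no longer passed (edgeR adjusted p = 0.460). The effect of -0.62 in C57Bl/6 still passed (edgeR adjusted p = 0.0133). Compared with each mouse's own earlier sample, with all libraries, miR-223-3p was higher in 21 of 32 irradiated C57Bl/6 mice (median change 0.58). In sham C57Bl/6 mice it was higher in 16 of 16 (median change 1.47). Irradiated C57Bl/6 mice were thus lower than sham mice, but not lower than before irradiation at the median. In C3H the median changes were -1.18 in irradiated and -1.04 in sham mice. Within the title codes G1 and G2, which do not hold those libraries, the strain difference was -0.22 (edgeR adjusted p = 0.951), and within G3 and G4 -2.04.

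The other members of this group behaved alike. miR-24-3p, an abundant miRNA of blood and endothelial cells, ranged from 12.10 to 13.85 log2 CPM in sham (median 12.64) and from 12.06 to 13.13 in irradiated C57Bl/6 mice (median 12.63) at day 5. In C3H it ranged from 11.44 to 12.41 in sham (median 12.04) and from 11.66 to 12.87 in irradiated mice (median 12.33), with 10 of 32 irradiated mice above the highest sham mouse. Its strain difference was -0.59 ± 0.15 (edgeR adjusted p = 0.00554) and -0.33 ± 0.15 without the 3 libraries (edgeR adjusted p = 0.460). miR-140-3p, best known from cartilage, differed by -0.63 ± 0.15 (edgeR adjusted p = 0.00457) and by -0.05 ± 0.16 without them. miR-423-5p, a common plasma miRNA, differed by -0.71 ± 0.20 (edgeR adjusted p = 0.0248) and by -0.06 ± 0.20 without them. Within G1 and G2 the differences were 0.58 for let-7a-5p, -0.01 for miR-24-3p, 0.03 for miR-140-3p and 0.24 for miR-423-5p, and within G3 and G4 they were -2.54, -1.23, -1.20 and -1.93. With miR-223-3p, all 5 differences passed within the title codes that hold the 3 libraries and none passed within the other codes.

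The 4 positive strain differences at day 5 were in both arms of miR-215, in miR-375-3p and in miR-3066-5p, and they kept their direction without the 3 libraries. miR-215 is expressed in intestinal epithelium and is induced by p53, and its gene lies in an exon of the antisense transcript 2010103J01Rik, opposite an intron of Iars2, at chr1:185313581-185313692 (GRCm38, plus strand), within 10 kb of Mir194-1. At day 5 miR-215-5p ranged from 7.92 to 10.89 log2 CPM in sham (median 9.65) and from 8.24 to 11.56 in irradiated C57Bl/6 mice (median 9.95). In C3H it ranged from 9.20 to 11.12 in sham (median 10.16) and from 8.47 to 10.58 in irradiated mice (median 9.63), with 11 of 32 irradiated mice below the lowest sham mouse. The effect pointed upward in C57Bl/6, at 0.42 ± 0.20 (edgeR adjusted p = 0.148), and downward in C3H, at -0.54 ± 0.19 (edgeR adjusted p = 0.108), and only the difference of the 2 passed. It was 0.97 ± 0.28 at day 5 (edgeR adjusted p = 0.0347), 0.57 ± 0.28 at day 2 (edgeR adjusted p = 0.605) and 0.77 ± 0.20 over both days (edgeR adjusted p = 0.0232). Without the 3 libraries the difference at day 5 was 1.00 ± 0.29 (edgeR adjusted p = 0.0976). The difference over both days was then 0.75 ± 0.20, which passed (edgeR adjusted p = 0.0379). Compared with each mouse's own earlier sample, the median change at day 5 was 0.11 in irradiated and -0.39 in sham C57Bl/6 mice. In C3H it was -0.15 in irradiated and 0.30 in sham mice. Both the irradiated and the sham mice thus enter the strain difference of miR-215-5p, with the larger changes in sham mice.

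The levels of miR-215-5p in C57Bl/6 mice also differed between title codes at day 5, with sham medians of 8.94 and 8.44 in females and males of G1 against 10.19 and 10.46 in those of G3. The irradiated medians were shifted in the same way, at 9.44 and 9.08 in G1 and 10.61 and 10.69 in G3. The strain difference at day 5 was 1.00 within G1 and G2, which did not pass (edgeR adjusted p = 0.431), and 0.98 within G3 and G4 (edgeR adjusted p = 0.0255). Over both days it passed in 16 of 28 alternatives, and was 1.21 ± 0.28 in females (edgeR adjusted p = 0.00307) and 0.30 ± 0.27 in males (edgeR adjusted p = 0.908). With the mouse as a replicate block it was 1.05 at day 5 (limma-voom adjusted p = 0.0467) and 0.69 over both days, which did not pass (limma-voom adjusted p = 0.161).

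The other arm, miR-215-3p, is far less abundant. At day 5 it ranged from 1.87 to 6.14 log2 CPM in sham (median 4.65) and from 0.23, the value of the 3 libraries with no read of it, to 7.32 in irradiated C57Bl/6 mice (median 5.75). In C3H it ranged from 4.44 to 7.0 in sham (median 5.61) and from 4.02 to 6.62 in irradiated mice (median 5.45). It rose in C57Bl/6 by 1.01 ± 0.22 (edgeR adjusted p = 0.000193), with 10 of 32 irradiated mice above the highest sham mouse, and differed by -0.27 ± 0.21 in C3H (edgeR adjusted p = 0.681). The strain difference was 1.28 ± 0.30 (edgeR adjusted p = 0.00457) and 1.13 ± 0.31 without the 3 libraries (edgeR adjusted p = 0.0787). miR-192-5p, which shares the seed of miR-215-5p and is made in liver and gut, rose at day 5 in C57Bl/6 by 0.75 and differed by 0.28 in C3H, but its strain difference of 0.47 ± 0.25 did not pass (edgeR adjusted p = 0.494). The rise of miR-215-3p in C57Bl/6 without the 3 libraries was 0.87 (edgeR adjusted p = 0.00804), that of miR-192-5p 0.60 (edgeR adjusted p = 0.0414) and the strain difference of miR-192-5p 0.31 ± 0.27 (edgeR adjusted p = 0.977).

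**Figure D4:**
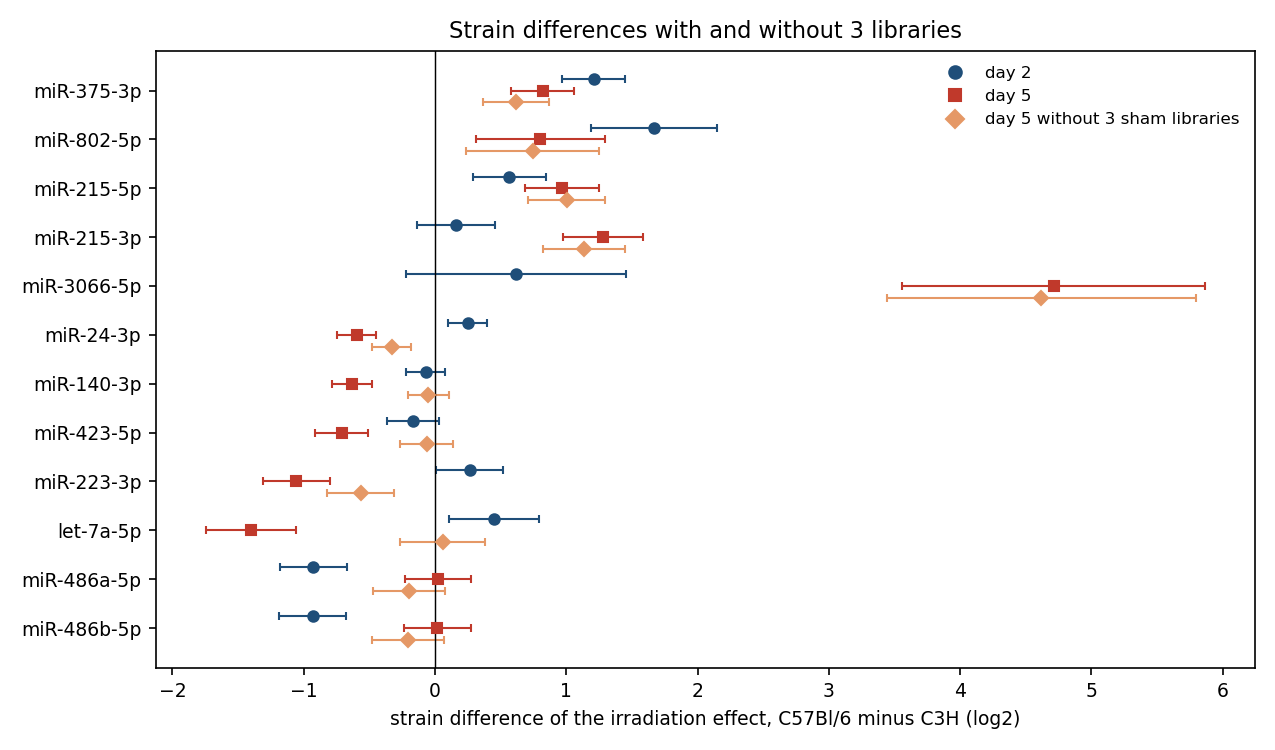
Strain difference of the irradiation effect (horizontal axis, log2, C57Bl/6 minus C3H) for the miRNA called at day 2, day 5 or over both days, at day 2 (circles), day 5 (squares) and day 5 without the 3 sham libraries that stood apart (diamonds), with bars of 1 standard error. Without those libraries, let-7a-5p moves from -1.40 to 0.06 and miR-423-5p from -0.71 to -0.06, whereas miR-215-5p stays at 1.00.

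The miRNA miR-802-5p and miR-3066-5p were called over both days but rested on few reads. miR-802-5p, which is made in liver and pancreas and whose gene on chromosome 16 lies between protein-coding genes, had a median of 3 reads in sham C57Bl/6 libraries of either day, 10 and 7 in irradiated C57Bl/6 libraries of days 2 and 5, and 17 to 36 in the C3H groups. At day 2 it ranged from 0.23 to 4.50 log2 CPM in sham (median 1.72) and from 0.23 to 6.10 in irradiated C57Bl/6 mice (median 3.90), against 1.48 to 6.15 (median 3.94) and 2.75 to 5.94 (median 4.47) in C3H. Irradiated C57Bl/6 mice were above sham mice at day 2 by 2.04 ± 0.38 (edgeR adjusted p = 9.12e-06), with 11 of 32 above the highest sham mouse. In C3H the effect was 0.37 ± 0.32 (edgeR adjusted p = 0.606). Compared with each mouse's own earlier sample, the median change at day 2 was 0.08 in irradiated and -1.34 in sham C57Bl/6 mice. In C3H it was 0.38 in irradiated and -0.35 in sham mice. The effect in C57Bl/6 thus rested largely on lower levels in sham mice. The strain difference was 1.67 ± 0.48 at day 2 (edgeR adjusted p = 0.0697) and 1.23 ± 0.34 over both days (edgeR adjusted p = 0.0428). A difference in the same direction was already present before irradiation, at 0.97 ± 0.34 (unadjusted p = 0.00403, edgeR adjusted p = 0.722). Set against each mouse's own earlier sample with the mouse as a fixed replicate block, it was 0.37 over both days (limma-voom adjusted p = 0.856), and without the 3 libraries 1.19 ± 0.35 (edgeR adjusted p = 0.0664).

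miR-3066-5p, a scarce miRNA from an intron of Nol10 at chr12:17355392-17355474 (GRCm38, plus strand), had 0 reads in all 16 sham C57Bl/6 libraries of day 5. Of the irradiated C57Bl/6 libraries, 11 of 32 held reads, 11 at most. In C3H, 14 of 16 sham and 26 of 32 irradiated libraries held reads. Pooled, the irradiated C57Bl/6 libraries held 57 of 33620051 reads, or 1.70 CPM. Against the floor of 3 reads over the sham group's 14636546 reads this was at least 8.27-fold higher. That bound covers the counting error of the sham group only, and not the spread between mice. Compared with their own earlier samples, 10 irradiated C57Bl/6 mice were higher at day 5 and 6 lower. Of the sham C57Bl/6 mice, 0 were higher and 8 lower. The fitted strain difference of 4.71 ± 1.15 at day 5 (edgeR adjusted p = 0.00457) and 2.66 ± 0.70 over both days (edgeR adjusted p = 0.0232) depends on how the 0 counts are treated and is no bound. In limma-voom the day 5 value was 1.05 (adjusted p = 0.710). It was the miRNA still called at day 5 without the 3 libraries, at 4.62 ± 1.18 (edgeR adjusted p = 0.0457).

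The strain differences of days 5 and 2 were also compared with each other, and 3 miRNA (0.621%) passed, all more negative at day 5. These were let-7a-5p at -1.85 ± 0.48 (edgeR adjusted p = 0.0323), miR-223-3p at -1.32 ± 0.36 (edgeR adjusted p = 0.0388) and miR-24-3p at -0.85 ± 0.21 (edgeR adjusted p = 0.0302). Without the 3 libraries 0 of them passed, at -0.35 (edgeR adjusted p = 0.988), -0.79 (edgeR adjusted p = 0.830) and -0.55 (edgeR adjusted p = 0.819). For miR-375-3p the difference between the days, -0.39 ± 0.34, did not pass (edgeR adjusted p = 0.834).

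Other early responses passed the test in both strains, without a called strain difference. miR-150-5p, a miRNA of mature lymphocytes, fell by 1.55 in C57Bl/6 and by 1.70 in C3H at day 2, and by 1.10 and 1.29 at day 5. At day 2 it ranged from 11.88 to 13.67 log2 CPM in sham and from 10.19 to 12.38 in irradiated C57Bl/6 mice, and from 10.97 to 14.32 and from 11.12 to 12.66 in C3H. No irradiated mouse of either strain lay above its sham median. The strain difference over both days was 0.17 ± 0.15, with a 95% interval of -0.12 to 0.47 (edgeR adjusted p = 0.728). The effect in C57Bl/6 at day 5 was -1.31 and the strain difference over both days 0.040 ± 0.15 without the 3 libraries. miR-155-5p, which activated lymphocytes and macrophages make, fell by 1.15 and 1.51 at day 2 and by 1.41 and 0.79 at day 5 in C57Bl/6 and C3H, and its strain difference was -0.13 ± 0.20 (interval -0.51 to 0.26). With those libraries left out, the day 5 effect of miR-155-5p in C57Bl/6 was -1.05 and its strain difference 0.047 ± 0.19. These intervals leave room for strain differences of some size and do not show that the strains responded alike.

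Members of the miR-34 family rose after irradiation in both strains as well. miR-34a-5p rose by 0.70 in C57Bl/6 and by 0.71 in C3H at day 2, and by 1.70 and 1.80 at day 5. At day 5 it ranged from 5.26 to 7.17 log2 CPM in sham and from 6.87 to 9.75 in irradiated C57Bl/6 mice, with 31 of 32 irradiated mice above the highest sham mouse. In C3H it ranged from 6.35 to 8.38 in sham and from 7.68 to 10.16 in irradiated mice, with 26 of 32 above. Its strain difference over both days was -0.06 ± 0.20 (interval -0.46 to 0.34, edgeR adjusted p = 0.946). miR-34c-3p, an arm of the family member made in ciliated airway cells and testis, rose in both strains at both days, by 1.21 and 1.92 at day 2 and by 0.99 and 1.51 at day 5 in C57Bl/6 and C3H, with a strain difference of -0.61 ± 0.25 (interval -1.10 to -0.13, edgeR adjusted p = 0.248). miR-34b-3p, from the same transcript, rose in C3H by 1.61 at day 2 and 1.17 at day 5, and its effects of 0.73 and 0.68 in C57Bl/6 did not pass. Its strain difference of -0.68 ± 0.27 did not pass either (edgeR adjusted p = 0.244), so a smaller response of miR-34b-3p in C57Bl/6 is not shown. The strain differences over both days without the 3 libraries were -0.10 ± 0.21 for miR-34a-5p, -0.68 ± 0.25 for miR-34c-3p and -0.67 ± 0.27 for miR-34b-3p, and the day 5 effects in C57Bl/6 were 1.59, 0.86 and 0.73.

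Among the other miRNA that the study names when comparing plasma between the strains, no strain difference passed over both days. miR-122-5p, the main miRNA of hepatocytes, fell in C57Bl/6 by 1.69 at day 2 and 1.74 at day 5 and in C3H by 1.06 at day 2, and its effect of -0.38 in C3H at day 5 did not pass. Its strain difference over both days was -0.99 ± 0.32 (edgeR adjusted p = 0.112), and -1.12 ± 0.33 without the 3 libraries (edgeR adjusted p = 0.0664), where its day 5 effect in C57Bl/6 was -1.96. miR-216a-5p, of pancreatic acinar cells, had a strain difference of 1.01 ± 0.38 (edgeR adjusted p = 0.243) and of 0.95 ± 0.38 without the 3 libraries, and sham C57Bl/6 libraries held a median of 1 read of it at day 2 and 0 at day 5. The strain differences of miR-142a-5p (0.55 ± 0.22), miR-142a-3p (0.07 ± 0.26), miR-18b-5p (0.13 ± 0.23), miR-202-5p (0.38 ± 0.65) and miR-106a-5p (-0.28 ± 0.20) had edgeR adjusted p-values between 0.256 and 0.949. Leaving out the 3 libraries, they were 0.52, 0.47, 0.17, 0.49 and -0.11, and none passed. The miRNA miR-142a-3p and miR-142a-5p are made by blood cells of all lineages, miR-106a-5p and miR-18b-5p share a cluster on the X chromosome, and miR-202-5p is made in the gonads.

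Lists of miRNA by cell type gave the following picture, where the median over all tested miRNA was 0.02 at each day. All 8 leukocyte miRNA had positive strain differences at day 2 (median 0.31), with 0 called, and 4 were positive and 4 negative at day 5 (median -0.04), with miR-223-3p called. Of 5 liver miRNA, 0 were called at either day (medians 0.36 and 0.05), and of 3 gut miRNA, all positive at both days (medians 0.36 and 0.47), miR-215-5p was called at day 5. Of 3 endocrine miRNA, miR-375-3p was called at both days, whereas miR-7a-5p (-0.45 ± 0.33 and 0.51 ± 0.34) and miR-7b-5p (1.27 ± 0.81 and 1.07 ± 0.87) were not called, and differences between the members were not tested. The 3 acinar miRNA tested had medians of 0.45 and 1.19 with 0 called.

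No strain difference passed in the muscle and heart lists. The 4 skeletal muscle miRNA were all negative at day 2 (median -0.75, from -1.04 for miR-1a-3p to -0.56 for miR-206-3p) and 2 of 4 at day 5 (median -0.16, and 0.0049 without the 3 libraries). The 3 miRNA from cardiac and slow muscle myosin genes, miR-208a-3p, miR-208b-3p and miR-499-5p, were all negative at day 2 (median -1.38) and all positive at day 5 (median 1.80, and 1.75 without the 3 libraries). Their standard errors were large, at 1.12 and 1.17 for miR-208a-3p, and the summed share of the list was at most 0.0146% of reads in any library. In the epithelial, endothelial and stromal lists no miRNA was called either, and whether the miRNA on these lists came from the lung was not tested. The epithelial list held miR-200a-3p, miR-200b-3p, miR-200c-3p, miR-141-3p, miR-429-3p, miR-203-3p and miR-205-5p, which are not particular to the airway. The 7 epithelial miRNA had medians of 0.33 and -0.02, the 2 endothelial miRNA 0.02 and 0.26 and the 6 stromal miRNA -0.12 and -0.01. The 6 members of the miR-34 family were all negative at day 2 (median -0.39) with 0 called. At day 5, 0 members of any list were called without the 3 libraries. The day 5 medians were then -0.0029 for leukocyte, 0.021 for liver, 0.31 for gut, 0.62 for endocrine, 1.06 for acinar, -0.042 for epithelial, 0.14 for endothelial and -0.21 for stromal miRNA.

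The strain difference was examined by sex, since females and males were equal in number. In females 3 miRNA (0.621%) were called at day 2, 17 (3.52%) at day 5 and 12 (2.48%) over both days, against 0 (0%), 0 (0%) and 1 (0.207%) in males, where edgeR gave 18 and 36 miRNA with an unadjusted p under 0.05 at days 2 and 5. Without the 3 libraries, which are all from females, the calls in females went from 17 to 4 (0.83%) at day 5 and from 12 to 3 (0.622%) over both days. The 3 were miR-375-3p at 1.12 (edgeR adjusted p = 0.00148), miR-215-5p at 1.27 (edgeR adjusted p = 0.00384) and miR-9-3p at 2.95 (edgeR adjusted p = 0.0152). In males the same differences without the 3 libraries were 0.58 (edgeR adjusted p = 0.376), 0.26 (edgeR adjusted p = 0.906) and 0.18 (edgeR adjusted p = 0.993). The 1 called in males over both days was miR-122-5p, at -2.08 ± 0.44 (edgeR adjusted p = 0.00148), against 0.27 in females. The test of the difference between the sexes called 0 miRNA (0%) at day 2, 11 (2.28%) at day 5 and 4 (0.828%) over both days, and without the 3 libraries 0 in the last 2 contrasts, with 43 and 40 at an unadjusted p under 0.05. For miR-122-5p that difference over both days was 2.35 ± 0.62 (edgeR adjusted p = 0.0262), and 2.23 ± 0.64 without the 3 libraries, which did not pass (edgeR adjusted p = 0.105).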

How the data were processed

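Plasma miRNA libraries were made by the authors with a kit that adds molecular identifiers, after plasma with excess hemolysis was excluded. Per the authors' methods, reads were aligned and counted with a small RNA application, and runs with few reads were rejected. The deposited values are raw counts per mature miRNA. The submitters' processing notes name mm10. The miRNA annotation release and the use of the molecular identifiers in counting are not given in the sources used here.

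All 899 libraries were fitted in 1 model of 32 groups (strain, treatment and time) in edgeR 4.0.16 under R 4.3.3, with TMM normalization, edgeR's filter on low counts, and the quasi-likelihood test with 867 residual degrees of freedom. Strain differences were contrasts of this model, and p-values were adjusted by Benjamini and Hochberg over all 483 miRNA within a contrast, with a threshold of 0.05. Levels are log2 CPM with a prior count of 2. Errors are standard errors of the log2 difference, with 32 irradiated and 16 sham mice per strain and day, and all tests were two-sided.

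The named miRNA were, for each contrast, up to 8 with the smallest adjusted p past the threshold plus the most positive and most negative of those, miRNA that the study names when comparing plasma between the strains (not those of its other plasma analyses), and examples from lists of cell type miRNA. The members and lists were chosen with earlier results of these data known. The early sample and the sample before irradiation came from the same mouse, and their deviations from the group means correlated at 0.182 on average over 192 pairs, against -0.0006 for other mice. A fit with the mouse as a block was therefore run in limma-voom (limma 3.58.1). Alternatives also used DESeq2 1.42.0, other normalizations, filters and subsets. On simulated data with known changes, the day 2 contrast recovered 36.8% of 95 changes of 2-fold and 73% of 100 changes of 4-fold. Of its calls, 5.26% were false. There 473 miRNA were tested, and title code, sex and mouse had no effect. The share of changed miRNA was far above the 0.621% called at day 2 in the data, so these rates may not carry over to the data. Sequences and loci were matched by name to RefSeq (415 of 483 miRNA) and to the GRCm38 annotation.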

Additional observations from a re-analysis of the deposited data

Results flagged for a closer look

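The responses of the following miRNA differed between the strains by the test of the difference itself (edgeR adjusted p under 0.05), as log2 values of C57Bl/6 minus C3H. At day 2 these were miR-375-3p (1.21), miR-486a-5p (-0.93) and miR-486b-5p (-0.93), of which the last 2 are counted from nearly identical reads. At day 5 they were miR-3066-5p (4.71), miR-215-3p (1.28), miR-215-5p (0.97), miR-375-3p (0.82), let-7a-5p (-1.40), miR-223-3p (-1.06), miR-423-5p (-0.71), miR-140-3p (-0.63) and miR-24-3p (-0.59). Of these, only miR-3066-5p still passed without the 3 sham libraries that stood apart. The values of let-7a-5p, miR-140-3p and miR-423-5p were then 0.06, -0.05 and -0.06. Over both days they were miR-3066-5p (2.66), miR-802-5p (1.23), miR-375-3p (1.02) and miR-215-5p (0.77). Without the same 3 libraries, the miR-486 pair at day 2 and miR-802-5p over both days missed the threshold.

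The strain difference itself changed between day 2 and day 5 for let-7a-5p (-1.85), miR-223-3p (-1.32) and miR-24-3p (-0.85), and without the 3 sham libraries that stood apart 0 of these passed.

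For some miRNA the strain difference also passed the test of a difference between females and males. At day 5 the values of females minus males that passed were 7.70 for miR-1943-5p, 5.43 for miR-9-3p, -8.46 for miR-708-3p, -6.44 for miR-3064-5p, -3.13 for miR-148a-3p, -2.48 for let-7a-5p, -2.11 for let-7e-5p, -1.69 for miR-1198-5p, -1.66 for miR-503-3p, -1.41 for miR-423-5p and -1.14 for miR-140-3p. Over both days they were 6.13 for miR-194-2-3p, 2.35 for miR-122-5p, -5.10 for miR-3064-5p and -2.22 for miR-148a-3p. Without the 3 sham libraries, all from females, miR-3064-5p was no longer among the 482 miRNA tested. Of the other differences between the sexes, 0 passed in edgeR. Then 43 miRNA had an unadjusted p under 0.05 at day 5 and 40 over both days. The large values have wide errors. At day 5 without those libraries, miR-1943-5p was at 7.74 ± 2.43, miR-708-3p at -8.87 ± 2.35 and miR-9-3p at 5.18 ± 1.52.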

How the results depend on the processing

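The number of called strain differences depended strongly on the processing, and miR-375-3p over both days depended on it least (27 of 28 alternatives passed). The main counts were 3 at day 2, 9 at day 5, 4 over both days, 3 for day 5 minus day 2 and 0 before irradiation. The cause of moved counts was not tested. At day 2 the count was 1 with DESeq2 size factors, upper-quartile factors, the study's normalization with limma, only day 2 and 5 samples in the fit, miR-451a as a covariate, libraries of at least 500000 reads, and without the 3 or the 4 sham libraries of G3. It was 24 with no filter on low counts, 5 for miRNA of at least 5 log2 CPM, and 0 within G1 and G2, within G3 and G4 and in males, and between 0 and 5 when 1 sex of 1 title code was left out. At day 5 it was 0 in limma-voom, for the change from the sample before irradiation, with the study's normalization, within G1 and G2 and in males. It was 15 in DESeq2, 26 with no filter, 16 at 5 log2 CPM, 5 with only day 2 and 5 samples, 4 at 500000 reads, 48 within G3 and G4, 18 in females, and 1 and 3 without the 3 and the 4 sham libraries. Leaving out 1 sex of 1 title code gave between 0, without the females of G3, and 25, without those of G1, with 17 and 15 without the males of G1 and of G3. Over both days it was 1 in limma-voom, for the change from the earlier sample, with the study's normalization, with only day 2 and 5 samples and in males. It was 7 in DESeq2 and with a block for title code and sex, 16 with no filter, 20 within G3 and G4, 15 in females, 2 without the 4 sham libraries and 9 in the F test of both days. Leaving out 1 sex of 1 title code gave 11 and 1 without the females of G1 and of G3, 10 without the males of G3, and 1 and 2 without the females and males of G4. For day 5 minus day 2 it was 0 in limma-voom, for the change from the earlier sample, with the study's normalization, at 500000 reads, within G1 and G2, in males and without the 3 or the 4 sham libraries. It was 8 in DESeq2, 7 with its size factors, 17 with no filter, 5 at 5 log2 CPM, 1 with miR-451a, 21 within G3 and G4, 10 in females, and between 0 and 9 when 1 sex of 1 title code was left out, with 8 without the males of G1 and 1 without the females of G4. Before irradiation it was 28 with no filter and 1 within G3 and G4. When limma-voom used each mouse as replicate block, the counts were 3 at day 2, 3 at day 5 (miR-215-5p, miR-223-3p and miR-24-3p), 1 over both days and 0 for day 5 minus day 2.

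Signs turned as follows. At day 5, let-7a-5p was 0.58 within G1 and G2, 0.14 in males, 0.37 without the females of G3, and 0.0585 and 0.22 without the 3 and the 4 sham libraries. miR-140-3p was 0.0308 within G1 and G2, 0.11 without the females of G3 and 0.0078 without the 4 libraries. miR-423-5p was 0.24 within G1 and G2, 0.0569 in males and 0.31 without the females of G3. For day 5 minus day 2, let-7a-5p was 0.68 within G1 and G2. Over both days, miR-18b-5p was -0.0703 in limma-voom, -0.0768 with the replicate block, -0.0647 for the change from the earlier sample, -0.24 within G3 and G4, -0.18 in females, -0.13 and -0.000251 without the females and males of G1 and -0.015 without the males of G4. miR-34a-5p was 0.0496 and miR-34b-3p 0.11 for the change from the earlier sample, and miR-34a-5p was 0.0060 at 500000 reads, 0.0678 within G3 and G4, 0.28 in females and 0.10 without the males of G3. miR-142a-3p was -0.29 for the change from the earlier sample, -0.0313 in DESeq2 and -0.0294 with its size factors, -0.0672 at 5 log2 CPM, -0.41 within G3 and G4, -0.27 in females, -0.24 and -0.0431 without the females and males of G1, -0.10 without the females of G2 and -0.12 without the males of G3. miR-150-5p was -0.21 within G1 and G2 and -0.16 in males. miR-155-5p was 0.11 within G1 and G2, 0.0685 in males, 0.0213 without the males of G2, 0.21 without the females of G3, and 0.0471 and 0.0206 without the 3 and the 4 libraries. miR-106a-5p was 0.0094 without the females of G3 and miR-122-5p 0.22 in females.

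Depth limits the scarce miRNA most: miR-802-5p and miR-3066-5p rest on a few reads per C57Bl/6 library. In simulated data most changes of 2-fold at day 2 were missed, but these rates may not carry over to the data. The room for an uncalled strain difference at day 2 varied with the miRNA. The 95% interval ran from -0.26 to 0.57 for miR-150-5p and from -1.03 to 2.26 for miR-3066-5p.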
